A study of Mus musculus with 6 samples.

Results

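The data are the counts of 7 mature miRNAs that mark vessels, blood and liver, measured in extracellular vesicles (EVs) of mouse colon explants and of bone marrow–derived dendritic cells (BMDCs). They were chosen by name as markers, with mmu-miR-126a-3p and mmu-miR-126a-5p of endothelium, mmu-miR-451a, mmu-miR-144-3p, mmu-miR-144-5p and mmu-miR-486a-5p of red cells, and mmu-miR-122-5p of liver. All 7 were among the 1966 mature miRNAs of the table, and 3 of the 7 passed the count filter that left 220 miRNAs for testing. There were 3 small RNA libraries of colon EVs and 3 of BMDC EVs, and all 6 carried the Rab27A fl/fl genotype, with no Cre named. Opened and washed colons, kept as whole tissue, were first shaken in complete RPMI, whose serum is not described as depleted. They were then cultured for 16 hours in medium with exosome-depleted serum, and fraction 2 of an iodixanol gradient was sequenced. BMDCs were grown with GM-CSF for 7 days in complete RPMI, whose bovine serum is not described as depleted, so medium and source cannot be told apart. The labels give the gradient to colon alone, whereas the text of the study names one for both sources, and whether it differed is not settled here. The sources do not say that libraries came from separate animals, so p-values measure only the spread between these libraries.

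miR-126 is produced from an intron of Egfl7, a gene of endothelial cells, and both of its arms are used as endothelial miRNAs. miR-144 and miR-451a are made from 1 transcript that GATA1 drives in erythroid cells, and miR-486-5p, from an intron of Ank1, is also abundant in red cells. miR-451a is unusual because Argonaute 2 cuts its hairpin without Dicer. miR-122-5p is the dominant miRNA of hepatocytes and circulates in serum, where miR-451a and miR-486-5p are also common, so these miRNAs are often read in blood work as signs of lysed red cells or of serum.

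The sequences show which molecules were counted and how the hairpins differ. Mature sequences of 4 of the 7 miRNAs, from RefSeq on GRCm38.p6, are given 5′ to 3′ with the seed, bases 2 to 8, in capitals, and no seed is shared between them.
miR-126a-3p: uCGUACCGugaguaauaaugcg
miR-451a: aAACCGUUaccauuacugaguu
miR-144-3p: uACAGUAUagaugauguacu
miR-144-5p: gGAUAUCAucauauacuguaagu
Both hairpins that follow have the mature miRNA in capitals, which for miR-451a fills bases 17 to 38 of 72 and runs across the loop, and for miR-126a-3p fills bases 46 to 67 of 73 on the 3′ arm.
Mir451a hairpin: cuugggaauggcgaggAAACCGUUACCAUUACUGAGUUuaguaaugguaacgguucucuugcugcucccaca
Mir126a hairpin: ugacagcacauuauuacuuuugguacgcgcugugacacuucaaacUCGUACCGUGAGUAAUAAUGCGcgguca
Mir126a lies on the plus strand of chromosome 2 of GRCm38, chr2:26591357-26591429, inside Egfl7, where 1 transcript class with a retained intron covers it and no other annotated exon does. Mir144, chr11:78073005-78073070, and Mir451a, chr11:78073170-78073241, lie 99 bases apart on the plus strand. Mir486, the hairpin of miR-486a, lies in an intron of Ank1 at chr8:23142555-23142682 on the plus strand, and the hairpin of miR-486b lies on the minus strand within it, at chr8:23142573-23142662.

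Library totals were between 83997 and 645303 counts, so that 3 counts, taken as the floor for counting error, corresponded to between 4.65 and 35.7 CPM, which are counts scaled to a common library total. Levels are given below as normalized CPM, which are scaled to the library size after TMM normalization. The labels fit the markers listed for each source: 5 of 5 epithelial miRNAs (miR-192-5p, miR-194-5p, miR-215-5p, miR-200b-3p and miR-141-3p) were higher in colon EVs, and 3 of 3 myeloid miRNAs (miR-155-5p, miR-223-3p and miR-142a-3p) were higher in BMDC EVs. These lists were chosen with earlier results of these data known, so the match is a description and not an independent check of the labels. miR-215-5p, with 13, 9 and 9 counts in BMDC EVs, passed the count filter through colon EVs, so its call is not read as support.

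Of the 3 tested miRNAs, 2 were higher in colon EVs, miR-126a-3p and miR-126a-5p, and 1 in BMDC EVs, miR-122-5p. miR-126a-5p entered the test only through its counts in colon EVs, so its call is not read as support. Among all 220 tested miRNAs, 36.4% were called higher in colon EVs and 40.5% higher in BMDC EVs at an adjusted p under 0.05, so a call in either direction was common and these counts do not set the 3 apart. The sizes of their differences were moderate beside those of the epithelial markers other than miR-215-5p and of the myeloid markers. Those log2 fold changes lay between −5.94 and −5.85 and between 4.58 and 5.07, respectively.

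**Figure D1:**
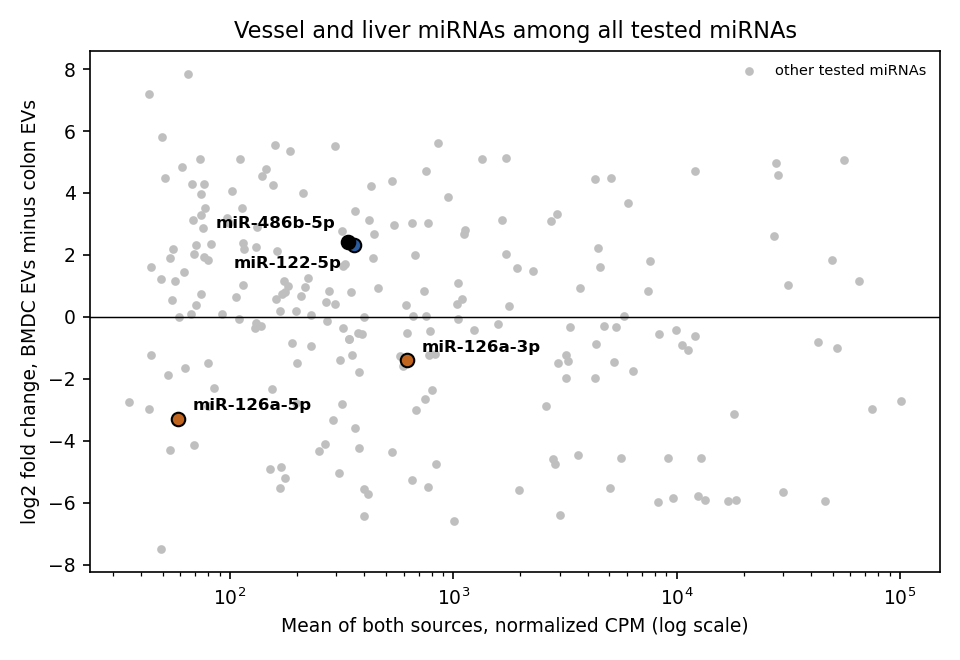
Log2 fold change (BMDC EVs over colon EVs) against mean normalized CPM on a log axis for the 220 tested miRNAs (gray), with miR-126a-3p and miR-126a-5p (orange), miR-122-5p (blue) and miR-486b-5p (black), which is not one of the 7. The marked points lie between −3.29 and 2.41, inside the range of the other miRNAs.

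Both arms of the endothelial miR-126a were higher in colon EVs than in BMDC EVs, and the minor arm was close to the floor in BMDC EVs. miR-126a-3p, which restrains inhibitors of VEGF signaling in endothelium, was counted 578.67, 141 and 132.5 times in the colon EV libraries (replicates 1 to 3, an order kept for every miRNA that follows), which gave 1150, 701 and 832 normalized CPM. The BMDC EV libraries held 29.25, 53.25 and 64.5 counts of it, or 189, 533 and 325 normalized CPM. The sources did not overlap, but BMDC EV replicate 2 came near the lowest colon EV library. The mean level was 894 ± 231 normalized CPM (SD, n = 3) for colon and 349 ± 173 (SD, n = 3) for BMDCs. This was a log2 fold change, BMDC EVs over colon EVs, of −1.40 (standard error 0.354, edgeR quasi-likelihood adjusted p = 0.00144), so that it was 2.64-fold higher in colon EVs. In vesicles, fewer EVs of a cell type and fewer copies in each EV cannot be told apart.

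Counts of miR-126a-5p were 84, 17 and 11 in the colon EV libraries but only 1, 1 and 3 in the BMDC EV libraries. Every colon EV library lay above every BMDC EV library, from 69.1 to 167 normalized CPM against 6.47 to 15.1. It passed the count filter only through the colon EV libraries, where it was higher, so its log2 fold change of −3.29 (standard error 0.661) is given without the p of that test. With no filter, so that its entry did not depend on either source, the log2 fold change was −3.83 (edgeR quasi-likelihood adjusted p = 6.45e-07 over 771 miRNAs). That fit moved the log2 fold changes toward colon EVs, by a median of −0.52, so this value and its p carry that shift. The p-values of alternatives with a count filter are not read as support. With the counts of each source pooled over library totals, the ratio of colon EVs to BMDC EVs was 8.29, with a 95% exact counting interval from 3.45 to 26.0. Of the 112 colon counts 84 came from replicate 1, and without that library the ratio was 5.37, with an interval from 2.05 to 17.8.

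The arms of miR-126a come from the same hairpin, and their ratio needs no scaling between libraries. With 0.5 added to both counts, the log2 ratio of miR-126a-3p to miR-126a-5p was 2.78, 3.02 and 3.53 in colon EVs and 4.31, 5.16 and 4.22 in BMDC EVs. All 3 BMDC EV values lay above all 3 colon EV values, a difference of 1.45 between means (two-sided exact permutation p = 0.1, the smallest that 3 against 3 libraries allow). In BMDC EVs the ratio rests on 1 to 3 counts of miR-126a-5p, and the difference was 1.16 with 1 added in place of 0.5. Together the arms held 0.103%, 0.0679% and 0.0828% of the counts of colon EVs and 0.0239%, 0.0646% and 0.0378% of those of BMDC EVs (two-sided exact permutation p = 0.1, also the smallest possible). miR-126b, whose hairpin lies on the opposite strand of the same place, had 0 counts of either arm in all 6 libraries.

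**Figure D2:**
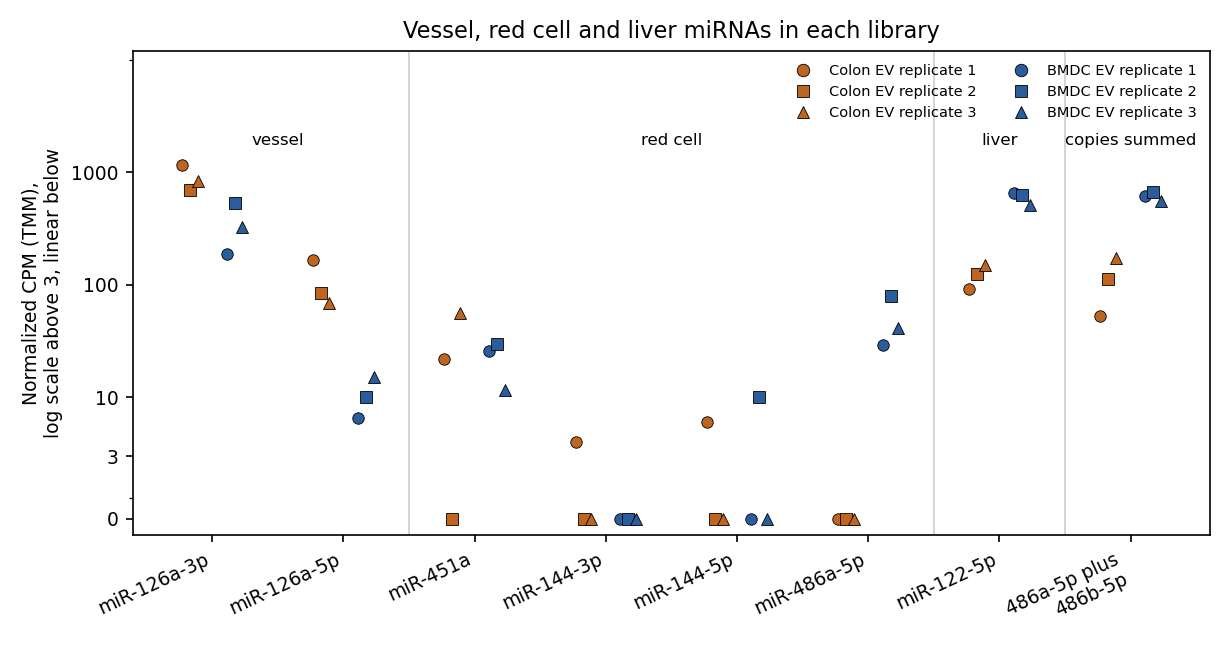
Normalized CPM of the 7 miRNAs, and of miR-486a-5p and miR-486b-5p summed, in each library, on an axis that is logarithmic above 3 and linear below. miR-126a lies higher in colon EVs (orange), miR-122-5p and the summed miR-486-5p lie higher in BMDC EVs (blue), and miR-451a overlaps.

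The liver miRNA went the other way. miR-122-5p, which supports lipid metabolism in hepatocytes, was counted 46, 25 and 24 times in the colon EV libraries, which gave 91.4, 124 and 151 normalized CPM. The BMDC EV libraries held 101.53, 62.5 and 101.67 counts of it, or 657, 626 and 512 normalized CPM. The lowest BMDC EV library was therefore well above the highest colon EV library, and the BMDC EV libraries were close to each other. Its mean level was 122 ± 29.7 normalized CPM (SD, n = 3) for colon and 598 ± 76.6 (SD, n = 3) for BMDCs. The log2 fold change was 2.32 (standard error 0.358, edgeR quasi-likelihood adjusted p = 1.03e-05), or 5.01-fold. Ranked by mean level among the 220 tested miRNAs, it stood at 81 for BMDC EVs but at 147 for colon EVs. Its counts were whole numbers in 3 of 3 colon EV libraries and not whole in 3 of 3 BMDC EV libraries. The other liver miRNAs listed were near 0: miR-802-5p had 2, 1 and 0 counts in colon EVs and 0 in each BMDC EV library, miR-122-3p had 0.14 counts in colon EV replicate 1 and 0 elsewhere, and both arms of miR-122b were at 0 in all 6. The serum was described as exosome-depleted for the culture of the explants alone, and not for the medium in which they were shaken before it. The part of serum in the level of miR-122-5p was not tested.

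Red cell miRNAs were scarce in both sources, with the exception of miR-486-5p. miR-451a, the most abundant miRNA of mature red cells, was counted 11, 0 and 9 times in the colon EV libraries and 4, 3 and 2.33 times in the BMDC EV libraries. These were 21.8, 0 and 56.5 normalized CPM in colon EVs and 25.9, 30.0 and 11.7 in BMDC EVs, so the sources overlapped and the widest spread lay within colon EVs. The 0 of colon EV replicate 2 allows a level of up to 12.9 CPM of its library total. Pooled over each source, the ratio of colon EVs to BMDC EVs was 0.794, with a 95% exact counting interval from 0.358 to 2.05, and it lay between 0.523, without colon EV replicate 3, and 1.02, without colon EV replicate 2. A difference within the first interval was not detectable at this depth.

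The neighbor of miR-451a on the same transcript was rarer still. miR-144-3p, the arm that represses NRF2 in red cells, had 2 counts in colon EV replicate 1 and 0 in the other 5 libraries. miR-144-5p had 3 counts in colon EV replicate 1, 1 in BMDC EV replicate 2 and 0 in the other 4. Both arms were at or under the floor in each source, so no fold is given. The colon EV library with counts of both arms was also the deepest of the 6.

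The log2 ratio of miR-451a to miR-23a-3p, a miRNA that red cell lysis changes little, is in common use as a measure of hemolysis in serum and plasma. With 0.5 added to both counts, it was −8.06, −11.1 and −6.16 in colon EVs and −6.99, −6.99 and −8.30 in BMDC EVs. miR-451a thus lay far below miR-23a-3p in all 6 libraries. The means were −8.42 ± 2.47 (SD, n = 3) and −7.43 ± 0.753 (SD, n = 3), a difference of 0.998 that was within the spread of the libraries (two-sided exact permutation p = 0.7). Without colon EV replicate 2, the library with no miR-451a, the difference was −0.319. miR-23a-3p itself overlapped between the sources, with 5210 ± 913 normalized CPM (SD, n = 3) for colon and 4210 ± 431 (SD, n = 3) for BMDCs.

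miR-486a-5p was listed at 0 counts in 3 of 3 colon EV libraries but had 4.5, 8 and 8.1 counts in the BMDC EV libraries, too few to pass the filter. Over pooled counts, with colon EVs set to a floor of 3 counts over the group, the level was 18.5-fold higher in BMDC EVs. Without colon EV replicate 1, the deepest library, it was 7.16-fold higher. Only the colon EV side has an allowance for counting error, so neither value is a lower bound. The 5p arms of miR-486a and miR-486b cannot be told apart by short reads, and most of the counts stood under miR-486b-5p, with 26.5, 22.5 and 27.5 in colon EVs and 91.25, 58.5 and 102.44 in BMDC EVs. The row of miR-486a-5p held 0% of the summed counts in each colon EV library and 4.70%, 12.0% and 7.33% in the BMDC EV libraries. How reads were placed between these rows is not given in the sources used here, so a level of 0 for miR-486a-5p and placement in the other row cannot be told apart.

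With both copies summed, a step chosen after their values were seen, miR-486-5p had 26.5, 22.5 and 27.5 counts in colon EVs and 95.75, 66.5 and 110.54 in BMDC EVs. These were 52.6, 112 and 173 normalized CPM in colon EVs and 620, 666 and 556 in BMDC EVs, with no overlap. The log2 fold change of the sum was 2.54 (standard error 0.419, edgeR quasi-likelihood adjusted p = 2.31e-05), or 5.81-fold higher in BMDC EVs. The 3p arms of both copies had 0 counts in all 6 libraries.

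The 4 red cell rows together held 0.00248%, 0% and 0.00519% of the counts of colon EVs and 0.00670%, 0.0143% and 0.00584% of those of BMDC EVs. Every BMDC EV library was above every colon EV library (two-sided exact permutation p = 0.1, the smallest possible), but with the TMM-scaled library size as the denominator the sources overlapped (p = 0.3 by the same exact permutation test). This separation rested on the miR-486a-5p row, with 4.5, 8 and 8.1 counts in BMDC EVs and 0 in each colon EV library. It therefore depends on how reads were placed between the copies. The difference between means was 0.00639 percentage points with all libraries and 0.00372 without BMDC EV replicate 2. With miR-486b-5p included, the share was 0.00659%, 0.00967% and 0.0211% in colon EVs and 0.0787%, 0.0839% and 0.0632% in BMDC EVs (p = 0.1 by the same exact permutation test). In the BMDC EV libraries most of that share was the summed miR-486-5p.

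The level of miR-122-5p ran close to that of the summed miR-486-5p. The ratio of their counts was 1.06, 0.940 and 0.920 in the BMDC EV libraries, while the colon EV libraries gave 1.74, 1.11 and 0.873. The ratio varied more between colon EV libraries, where each count was 46 or lower, than between BMDC EV libraries. By the root mean square difference of centered log2 normalized CPM over the 6 libraries, the tested miRNAs most like miR-122-5p were miR-1198-5p (0.178) and miR-744-5p (0.210), those most like miR-126a-3p were miR-672-5p (0.331) and miR-5099 (0.402), and those most like miR-126a-5p were miR-148a-3p (0.330) and miR-378a-5p (0.519). This measure is a description that mainly follows the difference between the sources.

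**Figure D3:**
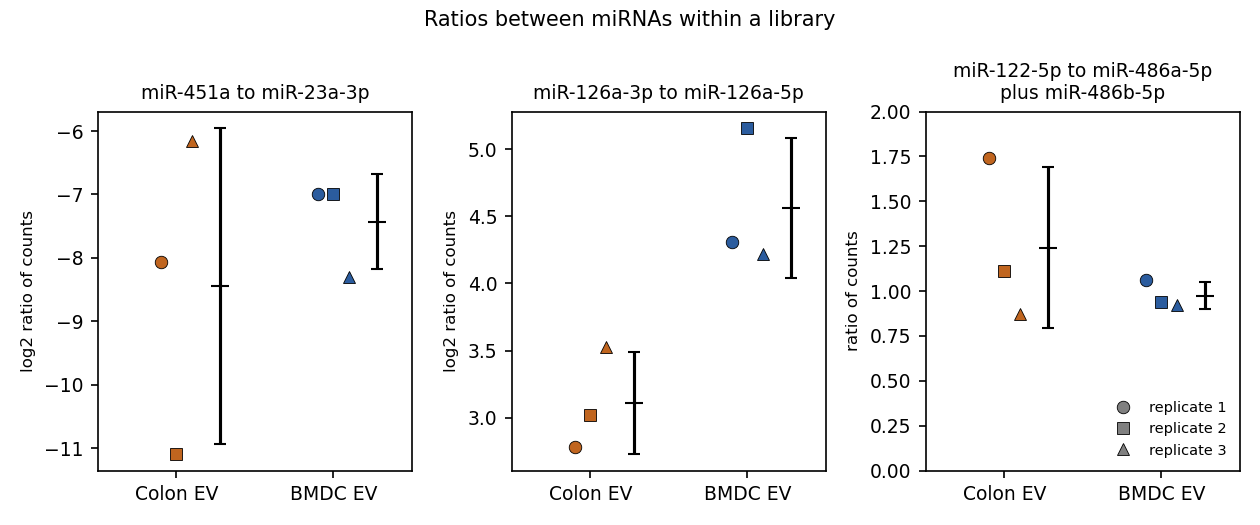
Ratios within each library by source, with the mean and SD of 3 libraries as black bars: log2 miR-451a to miR-23a-3p, log2 miR-126a-3p to miR-126a-5p, and miR-122-5p to summed miR-486-5p. The first overlaps between sources, the second is higher in all BMDC EV libraries, and the third lies between 0.873 and 1.74.

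Other miRNAs of the same cell types did not form 1 pattern. Of 5 other endothelial miRNAs listed, 2 were tested and 1 was called, miR-139-3p, which was higher in BMDC EVs with a log2 fold change of 1.88 (standard error 0.340, edgeR quasi-likelihood adjusted p = 6.40e-05), opposite to miR-126a. miR-139-5p had a log2 fold change of 0.63 (edgeR quasi-likelihood adjusted p = 0.241). A call higher in BMDC EVs was made for 40.5% of all tested miRNAs, so 1 call of 2 does not set this list apart. miR-218-5p had 27.17, 2.5 and 2 counts in colon EVs and 0 in each BMDC EV library, so that most of its counts came from 1 library. Of 4 arms of the smooth muscle pair miR-143 and miR-145a, found in the vessel wall and in gut muscle, 1 was tested, miR-143-3p. It had 1620 ± 530 normalized CPM (SD, n = 3) for colon against 60.9 ± 16.3 (SD, n = 3) for BMDCs, a log2 fold change of −4.76. Its counts in BMDC EVs were 6.5, 7 and 14, so it passed the filter through colon EVs, where it was higher. The p of that test is therefore not given. miR-145a-5p, under the filter, had 24.2, 13 and 8 counts in colon EVs and 0, 2.5 and 0 in BMDC EVs.

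The list of other red cell miRNAs had 8 arms, of which miR-486a-3p, miR-486b-3p and miR-451b, the partner or antisense arms, were at 0 in all 6 libraries. The other 5 were tested, of which 4 were higher in BMDC EVs, 1 did not pass and 0 were higher in colon EVs, with a median log2 fold change of 1.16 against 0.19 for all tested miRNAs. With no filter, BMDC EVs had 2 of these calls and colon EVs had 1. The 4 were miR-486b-5p (2.41), miR-92a-3p (1.60), miR-16-5p (1.16) and miR-25-3p (0.94), and apart from miR-486b-5p they are common in many cell types. miR-25-3p and miR-92a-3p share the seed AUUGCAC and come from different hairpin clusters.
miR-25-3p: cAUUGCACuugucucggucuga
miR-92a-3p: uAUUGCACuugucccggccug
miR-22-3p had a log2 fold change of −0.53 (edgeR quasi-likelihood adjusted p = 0.095). Of 5 white cell and platelet arms, 4 were tested and all 4 were higher in BMDC EVs, with log2 fold changes between 3.31 for miR-150-5p and 4.97 for miR-223-3p. Among all tested miRNAs, 40.5% were called higher in BMDC EVs. This count is not separate from that of the myeloid markers, since miR-223-3p and miR-142a-3p are in both lists and miR-142a-5p is the other arm of miR-142a. miR-150-5p, a lymphocyte miRNA that is also plentiful in plasma, had 541 ± 128 normalized CPM (SD, n = 3) for colon against 5270 ± 121 (SD, n = 3) for BMDCs.

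**Figure D4:**
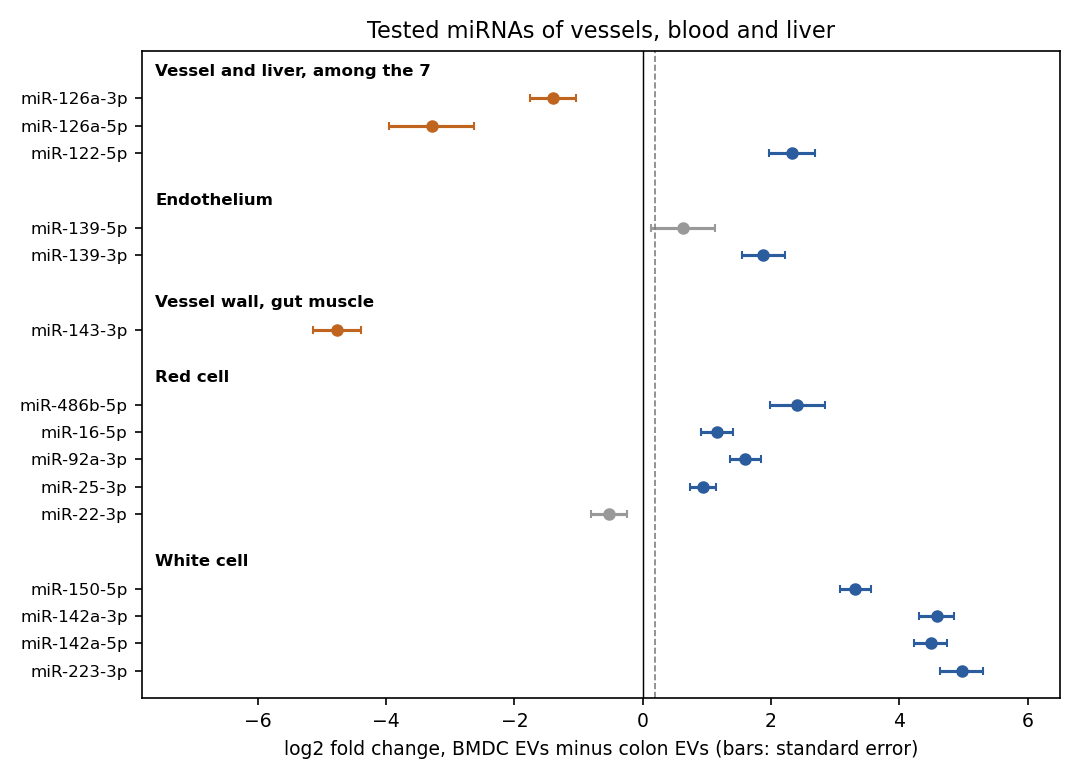
Log2 fold change with standard error (edgeR, 3 libraries per source) of the tested miRNAs by list, with colored points for an adjusted p under 0.05 (blue, higher in BMDC EVs, orange, higher in colon EVs) and gray for the rest. The colors of miR-126a-5p and miR-143-3p are not read as support, since both passed the count filter through colon EVs, where they were higher. The dashed line is the median of all tested miRNAs, 0.19. miR-126a and miR-143-3p lie on the colon side while miR-122-5p and miR-486b-5p lie on the BMDC side.

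Ordered by mean normalized CPM, which for mature miRNAs of nearly equal length needs no length scaling, colon EVs had miR-126a-3p (894), miR-122-5p (122), miR-126a-5p (107), miR-451a (26.1), miR-144-5p (1.99), miR-144-3p (1.32) and miR-486a-5p (0). This is an order of counts, and how well counts rank the amounts of different miRNAs was not tested. Between neighbors, miR-126a-3p stood apart from miR-122-5p and miR-126a-5p from miR-451a, while miR-122-5p and miR-126a-5p overlapped between libraries, as did each pair from miR-451a down. In BMDC EVs the order was miR-122-5p (598), miR-126a-3p (349), miR-486a-5p (50.0), miR-451a (22.6), miR-126a-5p (10.5), miR-144-5p (3.34) and miR-144-3p (0). There, the range of miR-126a-3p over libraries lay above that of miR-486a-5p, and the ranges of each other pair of neighbors overlapped. Compared within each library, miR-122-5p still lay above miR-126a-3p, and miR-486a-5p above miR-451a. The place of miR-486a-5p in both orders depends on how reads were placed between the copies. With the copies summed, miR-486-5p had a mean of 112 in colon EVs, where it overlapped miR-122-5p and miR-126a-5p, and of 614 in BMDC EVs, where it lay above miR-122-5p in 2 of 3 libraries and overlapped it. miR-126a-3p led in 3 of 3 colon EV libraries with or without this sum.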

How the data were processed

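Small RNA libraries of colon explant EVs and BMDC EVs, 3 of each, came from the QIAseq miRNA protocol. For 1966 mature miRNAs the authors deposited estimated counts, which need not be whole numbers and were rounded for testing. The submitters' processing notes name STAR 2.7.6a, featureCounts 1.6.3, DESeq2 1.30.1 and GRCm38 (mm10) without their roles. The annotation, strand setting and use of molecular identifiers are not given in the sources used here, so reads of hairpins on opposite strands of 1 place may be divided between rows. Groups and replicate numbers came from the sample titles, and 0 columns were unmatched.

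BMDC EVs were compared with colon EVs with the quasi-likelihood test of edgeR 4.0.16 in R 4.3.3 (TMM normalization, no covariate, Benjamini-Hochberg adjustment, threshold 0.05) over 220 miRNAs, those that reached 10 counts in 3 or more libraries. Normalized CPM are counts divided by the TMM-scaled total. Ratios and shares were compared with exact permutation tests over libraries (SciPy 1.17.1). Counting intervals are exact at 95% and, like the floor of 3 counts, cover counting error only. The scripts were tested on simulated data. The 7 miRNAs and the lists of other cell type miRNAs were chosen with earlier results of these data known. Named miRNAs are those 7, the listed miRNAs and the nearest tested miRNAs by profile. Sequences came from RefSeq tables on GRCm38.p6 and places from the GENCODE annotation of GRCm38.

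Alternatives were DESeq2 1.42.0, limma 3.58.1 with voom, other scalings, other count filters, each library left out, replicate number as a block and, chosen after seeing the data, counts not rounded, miR-486 copies summed and pooled ratios without each library. Same-numbered libraries of the sources had correlations of deviations between −0.0994 and −0.0314, so the numbers were not taken as pairs. No library was a copy of another, since counts of replicates differed by a chi-square of at least 6.25 per degree of freedom.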

Additional observations from a re-analysis of the deposited data

How the results depend on the processing

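The fold changes of miR-126a-3p and miR-122-5p kept their direction and stayed past the threshold in all 16 alternatives, with log2 values between −1.94 and −0.93 and between 1.83 and 2.78, respectively. That of miR-126a-5p, which the count filter admitted only through colon EVs, kept its direction, between −3.83 and −2.80. Scaling alone moved the median of all tested miRNAs by −0.13 (DESeq2 size factors), 0.23 (upper quartile) and 0.46 (library size). Library size alone called 105 miRNAs for BMDC EVs and 70 for colon EVs. The fit without a filter moved the same median by −0.52, toward colon EVs, and its values and calls carry that shift. Without a filter, 771 miRNAs were tested and 114 were called for colon EVs and 117 for BMDC EVs, the latter with 2 of the 7, since miR-486a-5p was then called, and 2 was also the count with the miR-486 copies summed. Without a filter the red cell list had 2 calls for BMDC EVs and 1 for colon EVs, the other endothelial list had 1 higher in colon EVs, the smooth muscle list had 2, and miR-23a-3p was 1 of those called higher in colon EVs. The red cell list also had 1 higher in colon EVs, miR-22-3p, by DESeq2 and with DESeq2 size factors. When single libraries were left out, 10 counts were asked of 2 libraries. Calls higher in colon EVs were then 0 to 1 for the red cell list and 0 to 1 for miR-23a-3p. In both cases the 1 came without colon EV replicate 3. For the smooth muscle list they were 1 to 2, with 2 called without colon EV replicate 3 and without any 1 BMDC EV library. The filter admitted those rows, miR-143-3p and miR-145a-5p, through colon EVs, where they were higher. The smooth muscle calls are therefore not read as support. The difference in the log2 ratio of miR-451a to miR-23a-3p ranged from −0.319, without colon EV replicate 2, to 2.13. With the replicate number as a block, the fold changes were −1.44, −3.17 and 2.32 and 86 miRNAs were called for BMDC EVs and 78 for colon EVs, so that no call among the 7 changed. The block could not bring an exact p under 0.25 for a ratio or share. Depth limits miR-451a, both arms of miR-144 and miR-126a-5p in BMDC EVs, where the counts were near the floor.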
